A study of Homo sapiens with 15 samples.

Results

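The genes described are 10 components of the Wnt pathway that act inside or on the responding cell: AXIN2, NKD1, RNF43, ZNRF3, SP5, LEF1, TCF7, TCF7L1, TCF7L2 and LGR5. They were taken by symbol from a table of counts for 23346 gene symbols, and all 10 were among the 17401 genes abundant enough to be tested. The libraries came from H9, an established human embryonic stem cell line, on days 0, 1, 2, 3 and 4 of differentiation toward definitive endoderm, the germ layer of gut and liver, with 3 polyA-selected bulk RNA-seq libraries for each day, numbered 1, 2 and 4. Day 0 cells were undifferentiated and had been grown in E8 medium. The differentiating cells received activin A, which acts through the Nodal receptors, in Advanced RPMI, and CHIR99021 was added for the first day alone. Day 0 and the later days therefore differ in medium as well as in treatment, and these cannot be told apart.

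In the canonical Wnt pathway, beta-catenin is phosphorylated by GSK3 within a destruction complex built on AXIN proteins and is then degraded. CHIR99021 inhibits GSK3, so that beta-catenin is spared and can bind TCF and LEF proteins on DNA, where it turns repression into activation of target genes. Several targets encode inhibitors of the pathway itself, which makes their RNA a commonly used readout of Wnt activity, and in the mouse embryo Wnt signalling is needed to form the primitive streak, from which mesoderm and endoderm arise.

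Total counts ran from 54723184 to 145857940 per library, and 3 counts corresponded to 0.0206 to 0.0548 CPM (counts scaled to a common library size), below every value of the 10 genes. The markers followed the day labels: the streak genes T (brachyury), MIXL1 and EOMES summed to 1829 to 1932 CPM on day 1 and 4.49 to 5.54 CPM on day 0, and the endoderm genes SOX17, FOXA2 and CXCR4 summed to 347 to 923 CPM on day 4 and 10.3 to 17.3 CPM on day 0. Replicate 1 stood apart on days 3 and 4, with streak sums of 79.9 and 88.0 CPM against 510 to 640 CPM in the other libraries of those days. These sums were nearly all MIXL1 and EOMES, and T did not set replicate 1 apart. T was at 3.80, 0.961 and 4.98 CPM on day 3 in replicates 1, 2 and 4. On day 4 it was at or below 2.58 CPM in every library. EOMES had its highest mean on day 2, 498 CPM against 230 CPM on day 1. Replicate 4 had pluripotency sums (POU5F1, NANOG and SOX2) of 294 and 190 CPM on days 3 and 4. The others had 41.9 and 64.2 CPM on day 3 and 35.5 and 49.3 CPM on day 4. Of the markers of other cell types, the neural genes PAX6, SOX1, NEUROG2 and OTX2 summed to 66.8 to 125 CPM on day 0, 49.2 to 89.7 on day 1, 339 to 433 on day 2, 310 to 786 on day 3 and 197 to 830 on day 4. Nearly all of this was OTX2, with PAX6 up to 60.5 CPM on day 4, while SOX1 and NEUROG2 did not exceed 0.171 CPM. The extraembryonic endoderm genes SOX7, AFP, TTR and APOA1 summed to 3.75 to 9.89, 1.76 to 2.63, 3.99 to 5.81, 5.27 to 16.3 and 59.5 to 98.7 CPM on days 0 to 4, with APOA1 the most abundant on day 4 and TTR at 0 in all libraries. OTX2, PAX6 and APOA1 were called higher on day 4 than on day 0. AFP was called lower, with means of 0.131 CPM on day 4 and 4.24 CPM on day 0, and SOX7 was not called. The part of such cells in the levels of the 10 genes was not tested. Whether the 3 libraries of each day are from separate cultures is not stated, and p-values reflect the spread among these libraries alone, which may be technical. In bulk RNA, fewer cells with a transcript and less of it per cell cannot be told apart.

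On day 1, after CHIR99021, 7 of the 10 genes rose and 2 fell relative to day 0 (edgeR quasi-likelihood test with Benjamini-Hochberg adjustment over all 17401 genes, adjusted p under 0.05). AXIN2, NKD1, RNF43, SP5, LEF1, TCF7 and LGR5 rose 13.0-fold to 485-fold, while TCF7L1 and TCF7L2 fell. ZNRF3 did not pass. Among all genes tested, 5.49% were called higher, 4.88% lower and 10.4% in either direction in this comparison, and the median log2 fold change was 4.35 for the 10 genes and -0.02 for all genes.

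On day 2, with CHIR99021 gone, 6 of the 7 genes that had risen were lower than on day 1, and TCF7L1 and TCF7L2 were higher. Removal of CHIR99021 and a further day in activin A came together, and these cannot be told apart. LGR5 and ZNRF3 did not pass. The share called in this comparison over all genes was 3.34% lower, 4.93% higher and 8.27% in either direction. Here the median log2 fold change was -2.38 for the 10 genes and -0.00 for all genes, the log2 fold change always being the later day minus the earlier day.

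Day 2 was still not a return to day 0: 7 of the 10 genes lay above day 0 on day 2 and 2 below it, with 11.6% of all genes called higher, 9.16% lower and 20.7% in either direction. From day 2 onwards little passed the test. TCF7L1 alone among the 10 was called on day 3 against day 2, where 0.948% of all genes were called, and none of the 10 on day 4 against day 3, where 0% of all genes were called by edgeR. With replicate number as a block SP5 was called as well on day 3 against day 2, beside 3.39% of all genes. For day 4 against day 3 none of the 10 had an unadjusted p under 0.05 and DESeq2 also called 0, beside 0.395% of all genes. On day 4, 7 of the 10 were higher than on day 0 and none lower, with 18% of all genes called higher, 16.2% lower and 34.2% in either direction. The comparisons share libraries of the same days, so they are not independent of each other.

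**Figure D1:**
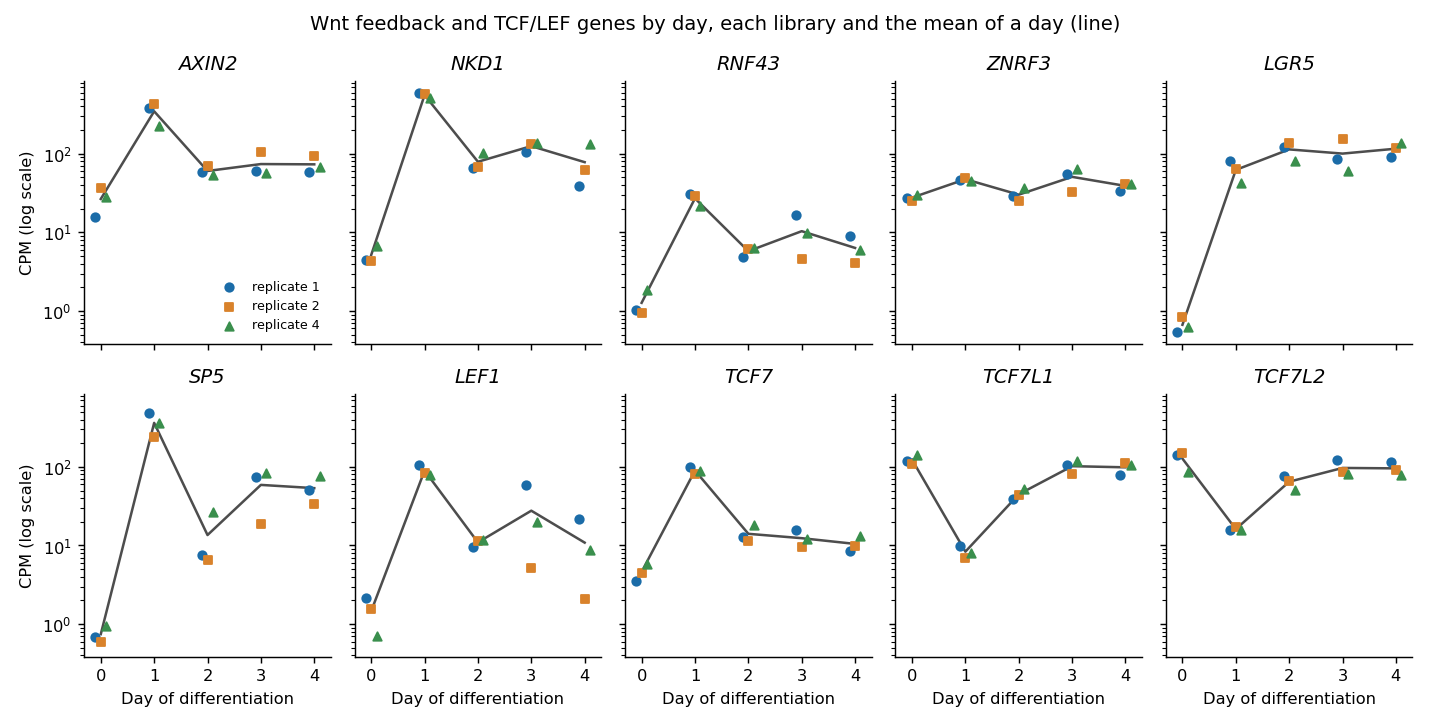
CPM on a log scale (vertical) by day of differentiation (horizontal) for the 10 genes. Each symbol is a library of replicate 1, 2 or 4 and the line joins the means of the days. SP5, NKD1, LEF1, TCF7, AXIN2 and RNF43 peak on day 1, TCF7L1 and TCF7L2 have their lowest level on that day, LGR5 stays high after day 1 and ZNRF3 moves little.

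AXIN2 encodes a scaffold of the destruction complex and, being itself a target, restrains the signal that induces it. Its level was 15.5, 36.4 and 28.0 CPM on day 0 in replicates 1, 2 and 4, 384, 435 and 223 CPM on day 1, 58.0, 69.5 and 53.9 CPM on day 2, 60.6, 105 and 56.9 CPM on day 3 and 58.4, 94.4 and 67.6 CPM on day 4. All day 1 libraries lay above all others and all day 0 libraries below all others, whereas days 2, 3 and 4 overlapped. AXIN2 was 13.0-fold higher on day 1 than on day 0 (log2 fold change 3.70 with a standard error, SE, of 0.40, adjusted p = 1.93e-05, edgeR). On day 2 it stood at 17.4% of its day 1 mean (log2 fold change -2.52 with SE 0.38, adjusted p = 6.58e-04). Its day 2 level was still above day 0 (log2 fold change 1.18 with SE 0.36, adjusted p = 0.0292), but this call was lost without day 0 replicate 1 (adjusted p = 0.101), day 2 replicate 1 (0.0533) or day 2 replicate 2 (0.0851) and when the 2 days were fitted alone (0.0577). Day 4 exceeded day 0 by a log2 fold change of 1.46 (SE 0.36, adjusted p = 0.00621).

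NKD1 encodes an inhibitor that binds Dishevelled, the protein that relays the signal from the receptors. It had 4.45, 4.33 and 6.72 CPM on day 0 in replicates 1, 2 and 4, 594, 570 and 512 CPM on day 1, 65.9, 69.0 and 103 CPM on day 2, 105, 135 and 136 CPM on day 3 and 38.5, 62.8 and 134 CPM on day 4. Day 1 was again far above every other day and day 0 far below, and among the later days the libraries of day 3 lay above those of day 2. On day 4 replicates 1 and 2 lay below all day 2 libraries and replicate 4 lay within the range of day 3. The rise on day 1 was 108-fold (log2 fold change 6.76 with SE 0.47, adjusted p = 7.34e-07). NKD1 was lower on day 2 than on day 1 (log2 fold change -2.82 with SE 0.39, adjusted p = 3.88e-04), to 14.2% of the day 1 mean. It was 15.3-fold above day 0 on day 2 (adjusted p = 9.54e-06) and 15.1-fold above it on day 4 (log2 fold change 3.92, adjusted p = 6.94e-06), where the log2 fold change was 3.32 without day 4 replicate 4. The difference between days 3 and 2 did not pass (log2 fold change 0.66 with SE 0.37, adjusted p = 0.443).

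RNF43 and ZNRF3 are related membrane E3 ubiquitin ligases that remove Frizzled receptors from the cell surface. RNF43 had 1.02, 0.953 and 1.85 CPM on day 0 in replicates 1, 2 and 4, 31.1, 28.7 and 21.6 CPM on day 1, 4.82, 6.22 and 6.28 CPM on day 2, 16.8, 4.60 and 9.71 CPM on day 3 and 9.01, 4.07 and 5.97 CPM on day 4. Day 1 stood above and day 0 below all other libraries, and days 2, 3 and 4 overlapped. RNF43 was 21.3-fold higher on day 1 than on day 0 (log2 fold change 4.41 with SE 0.50, adjusted p = 3.72e-05), was lower on day 2 than on day 1 (log2 fold change -2.23 with SE 0.46, adjusted p = 0.00647) and was 4.99-fold higher on day 4 than on day 0 (log2 fold change 2.32 with SE 0.46, adjusted p = 0.00147).

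ZNRF3 was present throughout. It had 27.4, 25.4 and 30.3 CPM on day 0 in replicates 1, 2 and 4, 47.1, 49.7 and 45.7 CPM on day 1, 29.0, 25.0 and 36.7 CPM on day 2, 55.4, 33.2 and 64.2 CPM on day 3 and 33.6, 41.8 and 41.8 CPM on day 4. The libraries of day 1 all lay above those of days 0, 2 and 4, but within the range of day 3. ZNRF3 was 1.71 times as high on day 1 as on day 0, which did not pass (log2 fold change 0.78 with SE 0.27, adjusted p = 0.0872, edgeR) but did in DESeq2 (adjusted p = 0.0468). None of the 6 comparisons of days was called for ZNRF3 by the edgeR test without a replicate block, and in the joint test of the 5 days, which called the other 9 genes and 37.3% of all genes, its adjusted p was 0.0541.

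The log2 ratio of RNF43 over ZNRF3 counts, which cancels library size, was -4.51 ± 0.41 on day 0, -0.83 ± 0.24 on day 1, -2.38 ± 0.33 on day 2, -2.43 ± 0.62 on day 3 and -2.69 ± 0.74 on day 4 (mean ± SD, n = 3 libraries a day). It was higher by 3.68 on day 1 than on day 0 (SE 0.27) and by 1.82 on day 4 than on day 0 (SE 0.49), with no overlap between the libraries in either comparison. Exact two-sided permutation tests gave p = 0.1 for both, the smallest value that 3 libraries against 3 allow.

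LGR5 encodes a receptor for R-spondins, secreted proteins that clear RNF43 and ZNRF3 from the membrane, and it marks Wnt-dependent stem cells of the adult intestine. Its day 0 libraries had 0.544, 0.834 and 0.628 CPM, its day 1 libraries 80.8, 63.7 and 42.8 CPM, its day 2 libraries 121, 139 and 81.9 CPM, its day 3 libraries 86.9, 155 and 60.0 CPM and its day 4 libraries 91.8, 120 and 137 CPM in replicates 1, 2 and 4. Day 0 was far below every other day. All day 2 libraries lay above all day 1 libraries, though the closest values were 81.9 CPM on day 2 and 80.8 CPM on day 1, and days 2, 3 and 4 overlapped. LGR5 was 93.0-fold higher on day 1 than on day 0 (log2 fold change 6.54 with SE 0.46, adjusted p = 7.34e-07). Its mean on day 2 was 182% of the day 1 mean, a difference that did not pass (log2 fold change 0.87 with SE 0.36, adjusted p = 0.160), where AXIN2, NKD1, RNF43, SP5, LEF1 and TCF7 were all lower by edgeR. On day 4 LGR5 was 173-fold higher than on day 0 (log2 fold change 7.44 with SE 0.47, adjusted p = 1.00e-07). Whether its day 2 change differed from those of the other genes was not tested.

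SP5 encodes a zinc finger transcription factor that is a direct Wnt target and, in human pluripotent cells, dampens the activity of other targets. It had the highest fold change of the 10 genes on day 1. The level was 0.686, 0.596 and 0.951 CPM on day 0 in replicates 1, 2 and 4, 479, 243 and 365 CPM on day 1, 7.48, 6.58 and 26.7 CPM on day 2, 75.0, 18.8 and 83.0 CPM on day 3 and 51.3, 34.1 and 75.5 CPM on day 4. No day 1 library overlapped any other day, and the day 2 libraries lay below those of day 4, but replicate 4 on day 2 was higher than replicate 2 on day 3. SP5 was 485-fold higher on day 1 than on day 0 (log2 fold change 8.92 with SE 0.79, adjusted p = 3.18e-06) and was down to 3.75% of the day 1 mean on day 2 (log2 fold change -4.74 with SE 0.65, adjusted p = 3.37e-04). Without day 2 replicate 4 that log2 fold change was -5.69.

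SP5 then had a higher mean on day 3 than on day 2, 58.9 ± 35.0 CPM and 13.6 ± 11.3 CPM (SD, n = 3 each), which did not pass (log2 fold change 2.12 with SE 0.58, adjusted p = 0.0922, edgeR). It passed with the replicate number as a block (adjusted p = 0.0104), in DESeq2 (0.00916), without day 3 replicate 2 (0.0346) and without day 2 replicate 4 (0.0258). That last library also had the highest pluripotency sum of day 2 (256 CPM against 77.1 and 89.9 CPM), carried by POU5F1 at 215 CPM against 41.7 and 43.4 CPM. Its SOX2 was the lowest of the day (4.25 CPM against 5.41 and 5.65 CPM) and its NANOG lay in the middle. It had the highest mesoderm sum as well (TBX6, MSGN1, MESP1, FOXF1 and HAND1, 270 CPM against 63.3 and 107 CPM), of which HAND1 made up 215 CPM. The part of other cell types in the SP5 level was not tested. SP5 was 71.8-fold higher on day 4 than on day 0 (log2 fold change 6.17 with SE 0.70, adjusted p = 1.39e-05).

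The promoter of SP5 is shown because no other gene of the 10 rose as far, beside those of LEF1, which also rose, and TCF7L1, which fell. Each stretch runs 5′ to 3′ on the gene's strand from 170 to 71 bases before the annotated start, read from RefSeq promoter sequence on GRCh38.p14, a later build than the hg19 named in the submitters' processing notes. Capitals mark the letters of the core TCF/LEF binding motif, CTTTGAT or CTTTGAA, or of their reverse complements ATCAAAG and TTCAAAG.
SP5, chr2:170715167-170715266, plus strand: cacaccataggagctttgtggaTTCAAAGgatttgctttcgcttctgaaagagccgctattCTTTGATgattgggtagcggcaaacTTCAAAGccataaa
LEF1, chr4:108166372-108166471, minus strand: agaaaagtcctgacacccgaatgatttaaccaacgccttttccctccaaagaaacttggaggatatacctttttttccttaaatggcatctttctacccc
TCF7L1, chr2:85133222-85133321, plus strand: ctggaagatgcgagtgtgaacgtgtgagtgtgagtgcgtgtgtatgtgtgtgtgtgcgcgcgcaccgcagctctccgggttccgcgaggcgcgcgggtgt
The SP5 stretch holds 3 matches, at 148 to 142, 109 to 103 and 84 to 78 bases before the start, and they do not overlap. RefSeq windows of 250 bases before to 50 after a start were available for 6 of the 10 genes, 10 windows in all, with alternative starts for RNF43, TCF7 and TCF7L2, and SP5 had the only window with a match. Across all 35116 promoter windows, 6.86% held at least 1 match and 0.0256% held 3 or more. A match is a run of letters and not a measured binding site. Promoters of AXIN2, NKD1, ZNRF3 and LGR5 were not used here.

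The TCF and LEF genes encode the DNA-binding partners of beta-catenin. LEF1 and TCF7 (also called TCF1) act mostly as activators when beta-catenin is bound, TCF7L1 (TCF3) is mainly a repressor and in mouse embryonic stem cells restrains the pluripotency network, and TCF7L2 (TCF4) can do both.

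LEF1 had 2.13, 1.55 and 0.704 CPM on day 0 in replicates 1, 2 and 4, 106, 83.4 and 78.9 CPM on day 1, 9.50, 11.4 and 11.9 CPM on day 2, 58.2, 5.11 and 19.8 CPM on day 3 and 21.8, 2.10 and 8.69 CPM on day 4. Day 1 was above every other library and day 2 was uniform, whereas days 3 and 4 were scattered, with replicate 1 highest and replicate 2 lowest on both. LEF1 rose 61.3-fold on day 1 (log2 fold change 5.94 with SE 0.91, adjusted p = 4.49e-04). It was at 12.2% of that level on day 2 (log2 fold change -3.03 with SE 0.79, adjusted p = 0.0262), although with any 1 of the 6 libraries of days 2 and 1 left out this call was lost (adjusted p = 0.0551 to 0.10). Day 2 exceeded day 0 (log2 fold change 2.91 with SE 0.79, adjusted p = 0.0168), a call lost without day 0 replicate 4 (adjusted p = 0.0511), and day 4 exceeded day 0 (log2 fold change 2.90 with SE 0.79, adjusted p = 0.0110) although the libraries overlapped at 2.10 CPM on day 4 and 2.13 CPM on day 0. Without day 4 replicate 1 this last log2 fold change was 1.97 (adjusted p = 0.0482).

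On day 3 the summed level of TBX6, MSGN1, MESP1, FOXF1 and HAND1 was 284, 59.4 and 163 CPM in replicates 1, 2 and 4, the same order as LEF1, and on day 4 it was 116, 40.0 and 110 CPM. HAND1 made up most of these sums, 262 CPM of the highest. The others did not keep the order of LEF1. On day 3 TBX6 was at 3.41, 0.841 and 7.91 CPM, MESP1 at 12.4, 1.20 and 35.9 CPM and FOXF1 at 6.39, 10.3 and 12.4 CPM in replicates 1, 2 and 4. MSGN1 was at or below 0.0728 CPM on both days, and TBX6 was at 0.452 to 2.16 CPM on day 4. RNF43 followed the same order as LEF1 on both days, from 16.8 down to 4.60 CPM on day 3 and from 9.01 down to 4.07 CPM on day 4. The part of mesoderm cells in these levels was not tested.

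TCF7 peaked on day 1 as LEF1 did, with libraries closer together afterwards. It had 3.53, 4.45 and 5.86 CPM on day 0 in replicates 1, 2 and 4, 98.7, 81.7 and 88.8 CPM on day 1, 12.7, 11.5 and 18.0 CPM on day 2, 15.7, 9.43 and 12.0 CPM on day 3 and 8.44, 9.88 and 13.1 CPM on day 4. Day 1 was above and day 0 below all other libraries, and days 2, 3 and 4 overlapped in turn. TCF7 was 19.4-fold higher on day 1 than on day 0 (log2 fold change 4.28 with SE 0.34, adjusted p = 1.43e-06) and lower on day 2 than on day 1 (log2 fold change -2.67 with SE 0.32, adjusted p = 1.23e-04). It was 2.27-fold higher on day 4 than on day 0 (log2 fold change 1.18 with SE 0.31, adjusted p = 0.00817), a call that was lost when the 2 days were fitted alone (adjusted p = 0.0653).

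TCF7L1 ran the other way. It had 117, 110 and 143 CPM on day 0 in replicates 1, 2 and 4, 9.93, 6.99 and 8.11 CPM on day 1, 38.7, 43.4 and 52.2 CPM on day 2, 106, 80.4 and 119 CPM on day 3 and 79.5, 112 and 105 CPM on day 4. Day 1 was below and day 2 the next lowest, neither overlapping any other day, and days 0, 3 and 4 overlapped. TCF7L1 was 14.8-fold lower on day 1 than on day 0 (log2 fold change -3.89 with SE 0.29, adjusted p = 1.08e-06). It recovered in steps: day 2 was 5.36-fold higher than day 1 (log2 fold change 2.42 with SE 0.27, adjusted p = 6.81e-05) and day 3 was 2.28-fold higher than day 2 (log2 fold change 1.19 with SE 0.26, adjusted p = 0.0430). The last step was at the margin: leaving out 1 library lost the call in 10 of 15 cases (adjusted p = 0.0525 to 0.256 in those). The log2 fold change was between 1.07 and 1.22 in those cases. Without replicate 1 of days 3 and 4 together the call was also lost (adjusted p = 0.102), at a log2 fold change of 1.16. Day 4 against day 0 did not pass (log2 fold change -0.32 with SE 0.26, adjusted p = 0.347).

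TCF7L2 had 143, 152 and 86.1 CPM on day 0 in replicates 1, 2 and 4, 15.8, 16.9 and 15.7 CPM on day 1, 76.2, 66.5 and 51.4 CPM on day 2, 123, 86.9 and 80.3 CPM on day 3 and 117, 90.9 and 79.4 CPM on day 4. Its day 1 libraries were close together and below all others, and its day 2 libraries were below all libraries of days 0, 3 and 4, which overlapped. TCF7L2 was 7.88-fold lower on day 1 than on day 0 (log2 fold change -2.98 with SE 0.30, adjusted p = 1.32e-05) and 4.01-fold higher on day 2 than on day 1 (log2 fold change 2.00 with SE 0.29, adjusted p = 5.61e-04). The remaining gap of day 2 below day 0 was called (log2 fold change -0.97 with SE 0.28, adjusted p = 0.0238), but not without day 0 replicate 1 (adjusted p = 0.0626), day 0 replicate 2 (0.0716), day 2 replicate 2 (0.0796) or day 2 replicate 4 (0.0799), nor when the 2 days were fitted alone (0.105). Day 4 against day 0 did not pass (log2 fold change -0.41 with SE 0.28, adjusted p = 0.276).

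**Figure D2:**
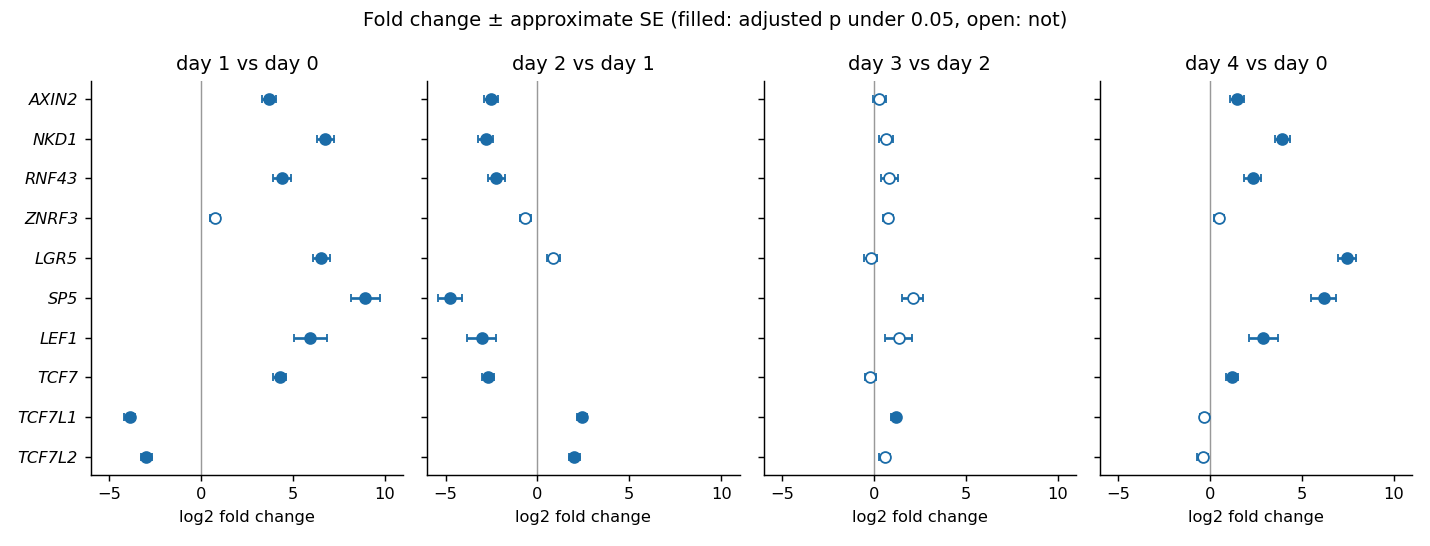
Log2 fold change (horizontal, later day minus earlier day) of the 10 genes in 4 comparisons, with approximate standard errors as bars; filled points have an adjusted p under 0.05 and open points do not. On day 1 vs day 0, 7 filled points lie right of 0 and 2 left of it, most of these change side on day 2 vs day 1, and only TCF7L1 is filled on day 3 vs day 2.

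To compare the 4 TCF/LEF genes with each other, levels were divided by exon length (LEF1 4195, TCF7 4120, TCF7L1 2968 and TCF7L2 4330 bases). As shares of their summed CPM per kilobase, TCF7L1 made up 57.6% ± 10.1, TCF7L2 40.3% ± 10.3, TCF7 1.56% ± 0.451 and LEF1 0.476% ± 0.223 on day 0 (SD, n = 3). On day 1 TCF7 and LEF1 held most of the sum: TCF7 made up 43.9% ± 1.91, LEF1 42.8% ± 2.39, TCF7L2 7.58% ± 1.03 and TCF7L1 5.64% ± 0.450. On day 2 TCF7L1 held 41.8% ± 5.91 and TCF7L2 41.5% ± 8.43 again, and on day 4 they held 55.0% ± 9.62 and 36.5% ± 6.84. Without division by length the TCF7L1 share was 48.6%, 4.08%, 33.3%, 43.6% and 46.0% on days 0 to 4. The order of TCF7L1 and TCF7L2 depends on the lengths used. In CPM, TCF7L2 had the higher mean on day 0 (127 and 123 CPM) and on day 2 (64.7 and 44.8 CPM).

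Library by library, the TCF7L1 share was 53.4%, 50.4% and 69.1% on day 0 in replicates 1, 2 and 4, 5.95%, 5.12% and 5.85% on day 1, 36.2%, 41.2% and 48.0% on day 2, 43.7%, 53.5% and 60.6% on day 3 and 43.9%, 61.2% and 59.9% on day 4. Day 1 was far below all other libraries, and day 2 was below day 0 but overlapped days 3 and 4. The share was lower by 52.0 percentage points on day 1 than on day 0 (difference -52.0, SE 5.81) and higher by 36.2 points on day 2 than on day 1 (SE 3.42), each with an exact two-sided permutation p of 0.1, the smallest possible. Day 4 minus day 0 was -2.64 points (SE 8.04, exact p = 0.9), and the sign of that difference changed without day 0 replicate 4 or day 4 replicate 1. The summed level of the 4 genes was 72.4 ± 2.49, 49.7 ± 5.72, 36.0 ± 0.592, 66.3 ± 15.7 and 60.4 ± 1.39 CPM per kilobase on days 0, 1, 2, 3 and 4. The lowest sum was therefore on day 2, when LEF1 and TCF7 were below day 1 and the means of TCF7L1 and TCF7L2 were below those of day 3.

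**Figure D3:**
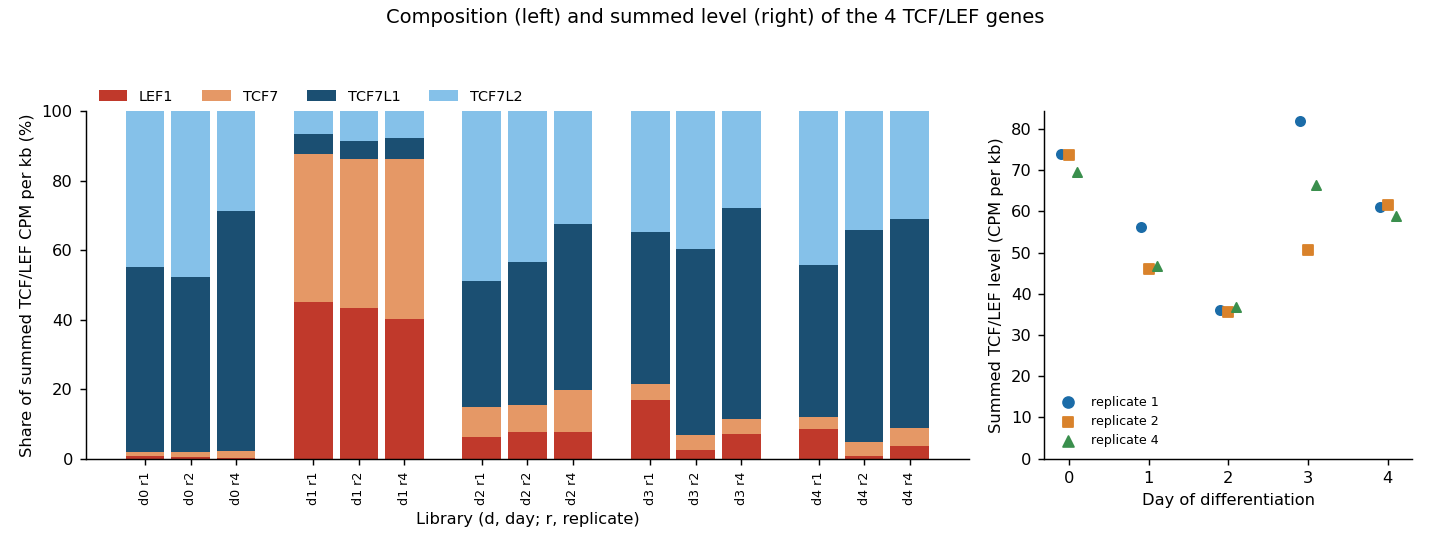
Left, share of each of the 4 genes in their summed CPM per kilobase (percent, vertical) in each library (horizontal, d for day and r for replicate); right, the summed level (CPM per kilobase) by day, a symbol per library. TCF7L1 holds 50.4% to 69.1% on day 0 and 5.12% to 5.95% on day 1, and the sum is lowest on day 2, at 35.5 to 36.7 CPM per kilobase.

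The changes of day 1 went with changes in the markers of cell types. All 3 streak markers (T, MIXL1 and EOMES) and all 5 mesoderm markers were called higher on day 1 than on day 0. Of all genes, 5.49% were called higher and 4.88% lower. The mesoderm sum was 81.0 to 96.8 CPM on day 1 and 1.37 to 1.75 CPM on day 0. Of the endoderm markers, CXCR4 was called higher (log2 fold change 2.16, adjusted p = 0.0382, edgeR). FOXA2 was called lower (log2 fold change -2.42, adjusted p = 0.0102) and SOX17 was not called (log2 fold change -0.35, adjusted p = 0.704). Of the 3 pluripotency markers SOX2 alone was called lower, with POU5F1 at 411 ± 80.0 CPM on day 1 and 449 ± 276 CPM on day 0. The part of cell state in the levels of the 10 genes was not tested.

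Other genes of the pathway were read from lists arranged by role. Among 12 receptor genes (10 Frizzleds, LRP5 and LRP6), on day 1 against day 0 there were 3 higher and 3 lower, with a median log2 fold change of -0.26. Of all genes tested, 5.49% were higher and 4.88% lower. FZD10 rose to 17.3 ± 6.50 CPM on day 1, against 0.383 ± 0.143 CPM on day 0 (log2 fold change 5.49 with SE 0.99, adjusted p = 0.00172), and on day 2 it was at 0.330 ± 0.0937 CPM. FZD4 rose as well (log2 fold change 2.23 with SE 0.47, adjusted p = 0.00526). FZD7, with 103 ± 2.75 CPM on day 1 and 737 ± 152 CPM on day 0, was lower (log2 fold change -2.84 with SE 0.45, adjusted p = 6.58e-04) and was higher again on day 2 than on day 1 (log2 fold change 2.52 with SE 0.45, adjusted p = 0.00236).

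In the R-spondin axis, LGR5's ligand RSPO3 and the related receptor LGR6 were the 2 of 6 genes called on day 1, beside 10.4% of all genes. RSPO3 had 89.5 ± 1.74 CPM on day 1 and 0.394 ± 0.213 CPM on day 0 (log2 fold change 7.83 with SE 1.12, adjusted p = 2.64e-04) and was called lower on day 2 than on day 1 (log2 fold change -4.57 with SE 0.96, adjusted p = 0.00755). LGR6 stayed low, at 2.18 ± 0.280 CPM on day 1 and 0.337 ± 0.356 CPM on day 0 (log2 fold change 2.68 with SE 0.73, adjusted p = 0.0283). The count of 2 was 1 without day 0 replicate 1 or 2 or without day 1 replicate 1, 2 or 4, where 5.82% to 6.94% of all genes were called. It ranged from 1 to 3 with a library left out, beside 5.82% to 14.9% of all genes. Under the other settings it ranged from 2 to 3, beside 8.42% to 16.7% of all genes. The median log2 fold change of the 6 genes was -0.27.

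Dishevelled, the destruction complex and beta-catenin, 15 tested genes of 16 listed, had 0 calls on day 1 against day 0 by edgeR and by DESeq2 (10.4% of all genes by edgeR), with 2 at an unadjusted p under 0.05 and a median log2 fold change of 0.43. The count was 1 without day 0 replicate 4 and with the replicate block, where 14.9% and 16.7% of all genes were called, and DESeq2 called 16.3% of all genes. CTNNB1, the beta-catenin gene and the most abundant of them, had 1513 ± 154 CPM on day 1 and 1302 ± 255 CPM on day 0 (log2 fold change 0.22 with SE 0.31, adjusted p = 0.720).

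Of 13 nuclear partners of TCF and LEF, 2 were higher and 1 lower on day 1, again beside 5.49% and 4.88% of all genes. These were PYGO1, a coactivator (log2 fold change 2.08 with SE 0.51, adjusted p = 0.0154), and the Groucho-family corepressors TLE3, higher (log2 fold change 1.87 with SE 0.45, adjusted p = 0.0144), and TLE1, lower (log2 fold change -2.06 with SE 0.31, adjusted p = 4.47e-04). The count of 3 was 1 without day 1 replicate 1 and 5 in DESeq2 and with the replicate block, and the median log2 fold change was 0.03. The shares of all genes called in those settings were 5.82%, 16.3% and 16.7%.

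Among 13 other Wnt target genes, 11 rose and none fell on day 1 against day 0, and 8 fell and none rose on day 2 against day 1. Of all genes, 5.49% were called higher in the first of these comparisons and 3.34% lower in the second. Their median log2 fold changes were 4.68 and -2.49. DKK4, a secreted Wnt antagonist, had 1329.6 ± 404 CPM on day 1 and 1.31 ± 0.111 CPM on day 0 (log2 fold change 9.99 with SE 1.22, adjusted p = 6.44e-05). T (log2 fold change 9.82 with SE 0.77, adjusted p = 1.16e-06) and the posterior homeobox gene CDX2 (log2 fold change 9.46 with SE 1.35, adjusted p = 2.56e-04) rose by similar amounts, and all 3 were called lower on day 2 than on day 1. On day 4 against day 0, 7 of the 13 were higher and 1 lower, with 18% of all genes called higher and 16.2% lower. T and TBX6 are also in the streak and mesoderm lists.

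**Figure D4:**
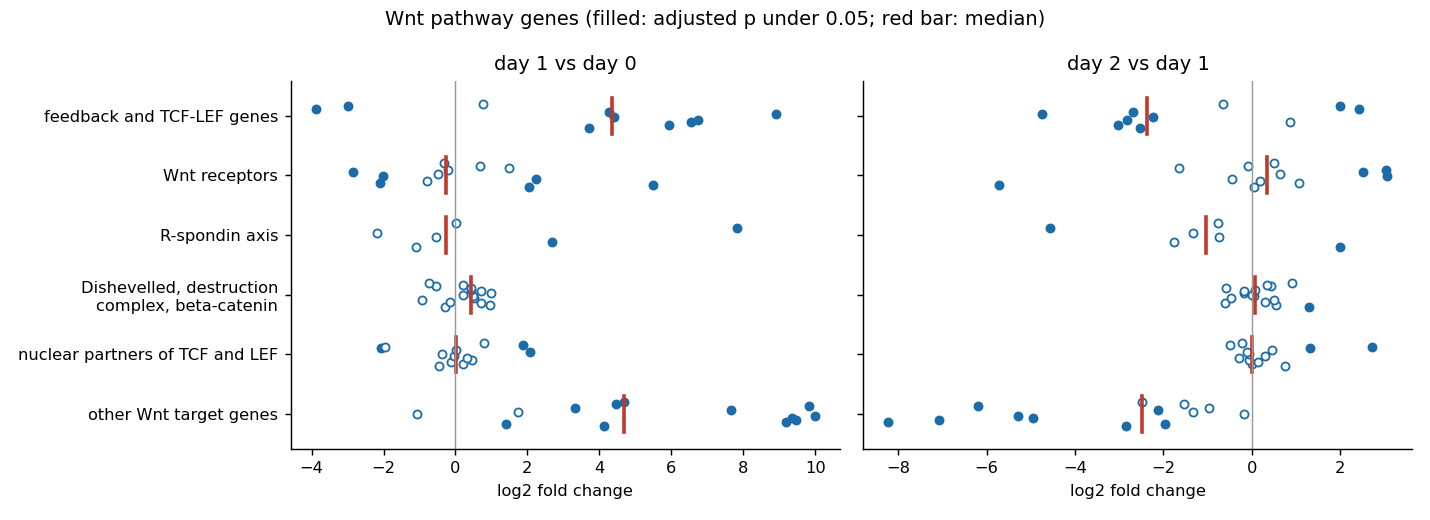
Log2 fold change (horizontal, later day minus earlier day) of each gene, in rows by role, for day 1 vs day 0 (left) and day 2 vs day 1 (right); filled points have an adjusted p under 0.05, and the red bar is the median of the row. The feedback and TCF/LEF genes and the other target genes have medians of 4.35 and 4.68 on day 1 vs day 0 and of -2.38 and -2.49 on day 2 vs day 1, while the other rows have medians between -1.04 and 0.43.

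To place individual genes, the genes nearest in course were found among 11872 genes whose highest daily mean was at least 5 CPM. Nearness was the mean absolute difference in log2(CPM + 1) over the 15 libraries, after each gene was centred on its own mean. The nearest to AXIN2 were CHMP4C (0.393), C17orf96 (0.417), LOC648987 (0.419) and BDKRB2 (0.427). Nearest to SP5, at a greater distance, were the homeobox genes MSX1 (0.817) and EVX1 (0.854), then NKD1 (0.879) and TTC29 (0.898), and nearest to LEF1 were the SP5 relative SP6 (0.375), GAD1 (0.464), FOXC1 (0.476) and CDH11 (0.518). TCF7L1 was closest to FGFR2 (0.374), PKDCC (0.396), TCF7L2 (0.463) and KCNH2 (0.486). LGR5 was closest to PCDH10 (0.479), HAS2 (0.497), COLEC12 (0.505) and SLCO2A1 (0.514).

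The neighbours were picked for likeness in these same libraries, so that their courses resemble those of the 10 genes was fixed by the choice. An example follows for each of 3 kinds of course, which for LGR5 is not its nearest gene. FGFR2, a receptor for fibroblast growth factors, had 80.3 ± 4.14, 9.74 ± 0.247, 60.8 ± 9.24, 101 ± 26.5 and 95.0 ± 16.8 CPM on days 0 to 4, low on day 1 like TCF7L1. HAS2, which makes hyaluronan, had 17.0 ± 3.82, 256 ± 51.2, 768 ± 140, 967 ± 217 and 836 ± 249 CPM, and stayed high like LGR5. SP6 had 0.937 ± 0.182, 54.9 ± 10.4, 4.55 ± 2.17, 15.8 ± 18.1 and 12.1 ± 17.1 CPM, with the peak on day 1 and the scatter on days 3 and 4 of LEF1.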

How the data were processed

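RNA from 15 samples of H9 cells was read as polyA-selected, directional libraries, per the labels' protocols. The counts, whole and without normalization, are as the authors deposited them, by gene symbol and library. TopHat2 2.0.14 and hg19 were used, per the submitters' processing notes; how reads were counted, with which annotation and whether by strand, is not given in the sources used here. Reads of overlapping or antisense genes could enter a count. Columns were matched to samples by title, which gives replicate and day. Of 23398 entries, 52 repeated a symbol: 44 identical ones were dropped and 8 were summed. No count was odd, which is what counting both mates of a read pair would give. No 2 libraries of a day agreed within counting noise, with a chi-square of 81.2 or more per degree of freedom.

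The main test was edgeR 4.0.16's quasi-likelihood F-test (limma 3.58.1, R 4.3.3) with TMM scaling, genes kept by filterByExpr by day and a mean per day over all 15 libraries in a single fit, with a biological coefficient of variation of 45.6%. The edgeR and DESeq2 fits were run on simulated counts to check the sign and size of recovered changes, without a limit on false calls. Benjamini-Hochberg adjusted p under 0.05 over 17401 genes was called. The SE of a log2 fold change is its absolute value divided by the square root of F, and is approximate. CPM use TMM-scaled library sizes; their precision rests on the 3 libraries of a day. Exon lengths are unions over GENCODE v29 transcripts. Shares and the RNF43 over ZNRF3 ratio were tested by exact permutation. Tables and figures were made with Python 3.11.15, pandas 2.3.3, scipy 1.17.1 and matplotlib 3.10.9.

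As alternatives, edgeR was run with the size factors of DESeq2 or with library totals alone, without a filter or keeping genes above 1 CPM in 3 libraries, with replicate number as a block, on the 2 days alone, on halved counts, without replicate 1 of days 3 and 4, and without each library in turn. DESeq2 1.42.0 was run as another test. The numbers were taken to pair libraries where each same-numbered pair's deviations from the day means correlated above 0.1. That held for day 3 vs day 2 (0.243, 0.344 and 0.578 for replicates 1, 2 and 4), day 4 vs day 3 and day 2 vs day 0, and not for the other comparisons. The main test used no block in any comparison, these included. The genes, lists, alternatives and rule for names were chosen with earlier results of these data known. Named were the 10 genes, the marker genes, up to 3 called genes of each list with the largest change on day 1 vs day 0 (the most abundant gene where none was called) and the 4 nearest genes in course for 5 of the 10.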

Additional observations from a re-analysis of the deposited data

How the results depend on the processing

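The count of the 10 genes called on day 3 vs day 2, 1 in the main test, was 0 with library totals alone, with no filter, with the 2 days alone and without replicate 1 of days 3 and 4, was 2 in DESeq2 and with the replicate block, and was 0 to 2 with a library left out. The share of all genes called, 0.948% in the main test, moved as well. It was 0.83% with library totals alone, 0.87% with no filter and 0% with the 2 days alone. Without replicate 1 of days 3 and 4 the share was 0.386%. It was 5.74% in DESeq2, 3.39% with the replicate block and 0.0281% to 1.39% with a library left out. Leaving out a library gave 9 calls throughout for day 1 vs day 0, 7 to 8 for day 2 vs day 1, 0 for day 4 vs day 3, 7 to 9 for day 2 vs day 0, 7 for day 4 vs day 0 and 9 to 10 in the joint test. The shares of all genes called, in that order, were 5.82% to 14.9%, 3.44% to 9.14% and 0% to 0.00564% for the first comparisons. For the others they were 13.1% to 21.7%, 22.85% to 37.5% and 29.15% to 39.7%. Of 900 log2 fold changes with a library left out, 852 kept direction and call, 24 lost a call, 2 gained a call and 22 changed sign; of 540 under other settings the numbers were 518, 7, 4 and 11. For none of these was the cause tested.

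Sign changes concerned small log2 fold changes that the main test did not call. On day 4 vs day 3 the log2 fold change became positive with library totals alone for AXIN2 (0.035), TCF7L1 (0.012) and TCF7L2 (0.036), for AXIN2 with no filter (0.0031), with the CPM filter (0.0046) and with the replicate block (0.012), and without replicate 1 of days 3 and 4 for AXIN2 (0.017), SP5 (0.11), TCF7 (0.11), TCF7L1 (0.12) and TCF7L2 (0.036). With a library left out, day 4 vs day 3 spanned -0.22 to 0.33 for AXIN2, -0.55 to 0.21 for SP5, -0.15 to 0.20 for TCF7L2, -0.19 to 0.12 for TCF7L1 and -0.043 to 0.675 for LGR5. Day 3 vs day 2 spanned -0.038 to 0.465 for AXIN2, -0.39 to 0.072 for TCF7 and -0.63 to 0.11 for LGR5, and ZNRF3 on day 2 vs day 0 spanned -0.037 to 0.29. The TCF7L1 share difference spanned -2.01 to 7.97 points on day 4 vs day 3, -6.28 to 3.10 on day 4 vs day 0 and 6.78 to 15.2 on day 3 vs day 2.

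The replicate block called ZNRF3 on day 1 vs day 0 (adjusted p = 0.0401) and in the joint test (0.0252), where the CPM filter (0.0495), DESeq2 (0.0124) and leaving out day 3 replicate 2 (0.0195) or day 2 replicate 4 (0.0399) also did; apart from ZNRF3 and SP5 on day 3 vs day 2 the block changed no call of the 10 genes. On day 1 vs day 0 replicate 1 correlated at 0.0319 with its own number. A paired permutation test that flips the signs of 3 differences cannot give a p below 0.25. That limit does not hold for the replicate block in edgeR.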
